A study of Mus musculus with 2 samples.

Results

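Interleukin receptor genes were examined in nuclear RNA of mouse macrophages. They were taken as the genes whose symbol starts with Il, digits and r and that have at least 1 transcript of the protein-coding type, without Il1rn, which encodes a secreted antagonist. This gave 40 genes of the 55536 Ensembl genes in the tables, of which 21951 are protein-coding. The samples were bone marrow-derived macrophages, primary phagocytes grown from the marrow of C57BL/6J mice. They received 100 ng/ml Lipid A for 12 hours, spent 12 hours without it, and received 100 ng/ml Lipid A again for 20 minutes. Lipid A is the part of bacterial lipopolysaccharide that the receptor TLR4 recognises. Total RNA of the nuclear fraction, called nucleoplasmic in the sample description, was depleted of ribosomal RNA and sequenced. There was 1 group with 2 libraries, replicate 1 from 1 µg of RNA and replicate 2 from 500 ng, so the input and the replicate cannot be told apart. Both carry the same donor entry, and no unstimulated or once-stimulated sample was analysed here, so no value below is an effect of Lipid A. The design allows no test, and differences are set against the spread of the 2 libraries.

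Interleukin receptors are assembled from subunits, usually a chain that gives specificity for the ligand and a chain that several receptors share. The common gamma chain, the common beta chain, gp130, IL-10 receptor beta and the IL-1 receptor accessory protein are such shared chains. Most of these receptors signal through JAK kinases and STAT factors, whereas receptors of the IL-1 family recruit the adaptor MyD88 and IRAK kinases, and those of the IL-17 family recruit the adaptor Act1. Macrophages are known to respond to IL-10, which restrains inflammatory genes, and to IL-4 and IL-13, which drive alternative activation.

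The libraries held 21954179 and 17739520 expected counts in genes, which are estimated reads. All 10 macrophage markers of a fixed list were present, with summed levels of 2579 and 2979 TPM (estimated reads per transcript length on a common scale). None of the markers of T and NK cells (8 genes), B cells (6), neutrophils (7), dendritic cells (6), mast cells and basophils (6) or stromal cells (5) was present. Their summed levels were between 0.11 and 2.89 TPM per list and library, highest for dendritic cells, and Cd3e, Cd3g, Pax5, Ly6g, Elane, Cpa3, Mcpt8 and Fcer1a were listed at 0 in both libraries. In such bulk RNA, fewer cells of a type and less RNA per cell cannot be told apart.

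A gene was called present at 1 TPM or more and 10 or more expected counts in both libraries. By this rule 17 of the 40 receptor genes (42.5%) were present, beside 43.7% of all protein-coding genes, so the family as a whole was not set apart by the number of its members present. Another 12 genes had counts but did not pass, and 11 had 0 counts in both libraries. By the usual limit, a count of 0 allows up to 3 counts, or 0.137 and 0.169 CPM (counts scaled to library size) in replicates 1 and 2. The median level of the receptor genes present was 15.9 TPM, beside 9.5 TPM for all protein-coding genes present. The 5 highest, Il2rg, Il10rb, Il10ra, Il4ra and Il15ra, held 74.8% and 73.9% of the TPM of all 40 genes. Just inside the threshold lay Il1rap (1.18 and 2.29 TPM) and Il13ra1 (1.28 and 2.80 TPM). Just outside lay Il17rb (0.79 and 1.07 TPM) and Il1rl2 (0.57 and 0.78 TPM).

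**Figure D1:**
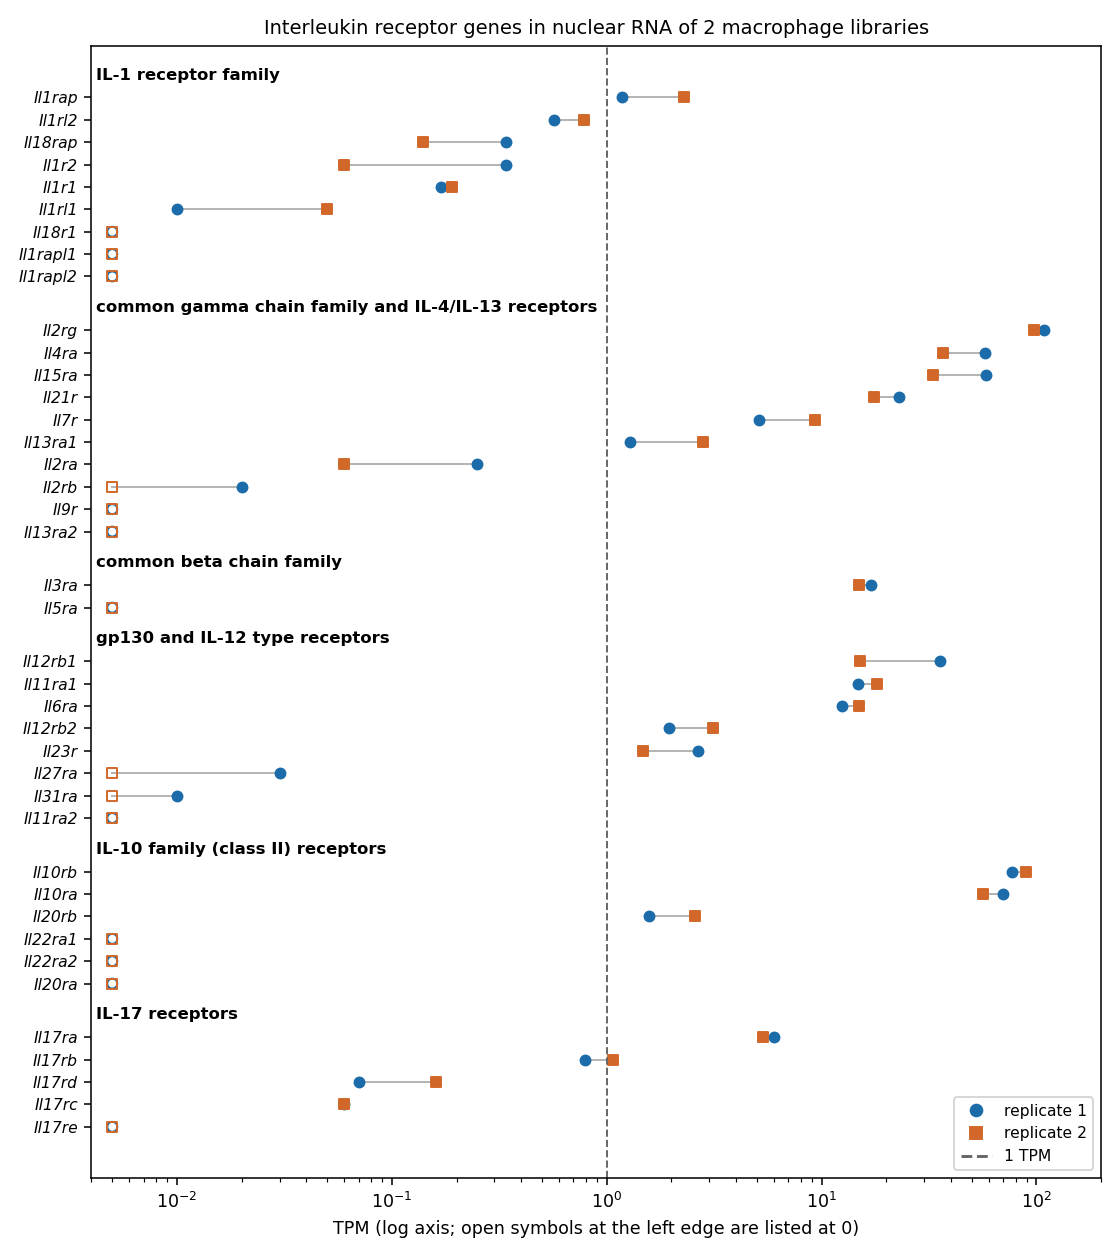
Level of each of the 40 receptor genes in TPM (log axis) in replicate 1 (circles) and replicate 2 (squares), grouped by receptor family; open symbols at the left edge are listed at 0 and the dashed line marks 1 TPM. Genes of the common gamma chain and IL-10 families reach the right side, whereas 1 of the 9 IL-1 receptor family genes, Il1rap, lies beyond 1 TPM in both libraries.

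In the common gamma chain family and the IL-4 and IL-13 receptors, 6 of 10 genes were present. Il2rg encodes the common gamma chain and was the highest of all receptor genes, at 108 and 97.8 TPM (mean 103 ± 7.30, SD, n = 2) on 4364 and 2812 expected counts. Its protein-coding transcript Il2rg-201 held 82.1% and 90.5% of the gene's TPM. The range of Il2rg over the 2 libraries did not overlap that of the next gene in the order, Il10rb. This first place depended on the measure. By CPM, which is not divided by length, Il10ra was first. In the other transcript table, made from the reads directly, Il10rb was first.

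Il4ra encodes the chain that binds IL-4 and is used in both kinds of IL-4 receptor. It stood at 57.5 and 36.7 TPM (mean 47.1 ± 14.7, SD, n = 2), so replicate 1 was the higher library. Its largest transcript in replicate 1 was not the protein-coding Il4ra-201 (34.7% and 48.3% of the gene's TPM) but Il4ra-205, annotated as a target of nonsense-mediated decay, at 53.4% and 39.2%. The order of these transcripts thus differed between the libraries. In the other transcript table, made from the reads directly, Il4ra-205 held 59.5% and 47.2% and Il4ra-201 held 19.1% and 31.0%, so Il4ra-205 was higher in both libraries there.

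The difference between them can be read in the sequence. Il4ra lies at chr7:125552120-125579474 (mm10, + strand), and Il4ra-205 has an extra exon of 114 bases at chr7:125571934-125572047, in the intron between exons 7 and 8 of Il4ra-201. The lines below give the last 30 bases of exon 7 in lower case and, in capitals, the first 20 bases that follow it in each transcript. In Il4ra-205 the capitals hold 17 coding bases of the extra exon and end in the stop codon TGA.
Il4ra-205: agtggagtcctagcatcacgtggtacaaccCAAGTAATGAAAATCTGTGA
Il4ra-201: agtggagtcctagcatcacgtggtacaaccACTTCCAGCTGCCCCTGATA
The coding part has 230 codons in Il4ra-205 and 810 in Il4ra-201. In mice, an Il4ra transcript with an inserted exon ahead of the part that encodes the transmembrane segment is known as the source of a soluble IL-4 receptor. Il4ra-205 also ends 1507 bases earlier than Il4ra-201. These differences do not account for the whole gap in length, with 3696 bases in Il4ra-205 and 5256 in Il4ra-201. The share of Il4ra-205 thus rests on more than the extra exon. No junction reads were analysed here, and the use of the extra exon alone was not measured.

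Il15ra encodes the chain that binds IL-15 and presents it to neighbouring cells. Its level was 58.5 and 33.1 TPM (mean 45.8 ± 17.9, SD, n = 2). Most of it was assigned to transcripts annotated with a retained intron, which held 65.9% and 59.6%, while protein-coding transcripts held 31.9% and 31.5%. The largest was Il15ra-208 at 28.3% and 41.9%, followed by mean share by Il15ra-216 at 24.2% and 14.7%. The highest protein-coding transcript of the gene by mean share was Il15ra-210, with 9.74% and 16.3%, above Il15ra-216 in replicate 2.

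Relative to Il15ra-210, Il15ra-208 keeps the whole of intron 2, 1554 bases at chr2:11718459-11720012 (mm10, + strand). It also contains a separate first exon of 186 bases and runs 287 bases into the intron after exon 3. The lines below show 20 exon bases in lower case and 20 intron bases in capitals at each end of the kept intron, which starts with GT and ends with AG, as spliced introns usually do.
Il15ra-208, 5′ end of the intron: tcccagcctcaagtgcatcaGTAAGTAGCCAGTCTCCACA
Il15ra-208, 3′ end of the intron: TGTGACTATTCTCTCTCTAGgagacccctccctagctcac
Nuclear RNA also holds precursors that still carry their introns. Reads from such precursors and reads from a finished transcript that keeps an intron cannot be told apart in these tables. This holds for each retained-intron share given here. It also holds for named transcripts of other types that contain intron bases of the coding transcript. Those annotated for nonsense-mediated decay are Il4ra-205 (114 bases), Il10rb-205 (863) and Il21r-203 (717). Il7r-202, of the processed transcript type, has 987 such bases.

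Il21r, which encodes the IL-21 binding chain, stood at 23.0 and 17.5 TPM (mean 20.3 ± 3.91, SD, n = 2). The protein-coding Il21r-201 held 75.4% and 72.7% of it. Il21r-203, annotated as a target of nonsense-mediated decay, held 15.7% and 20.3%. It lacks exon 3 (103 bases) and exon 7 (97 bases) of Il21r-201. It has 717 bases of intron within an exon, at chr7:125630790-125631506 (mm10, + strand). With 6 exons and 1822 bases, against 9 and 2499 for Il21r-201, it also differs elsewhere. The share of Il21r-203 rests on all of these differences.

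Il7r, the IL-7 receptor alpha chain, was at 5.09 and 9.34 TPM (mean 7.22 ± 3.0, SD, n = 2), so replicate 2 was the higher library. Its protein-coding Il7r-201 held 64.3% and 80.5%, and Il7r-202, of the processed transcript type, held 26.8% and 19.5%. Il13ra1, the IL-13 binding chain that pairs with Il4ra, was far lower at 1.28 and 2.80 TPM (134 and 200 expected counts), all of it in the protein-coding Il13ra1-201. The 4 genes of this group that were not present were Il2ra (25 and 5 expected counts), Il2rb (1 and 0), Il9r and Il13ra2 (0 in both). Il2ra and Il2rb encode the IL-2 receptor alpha and beta chains, and Il13ra2 encodes a decoy for IL-13.

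In the IL-10 family, 3 of 6 genes were present, and the subunits of the IL-10 receptor were among the highest genes of the whole set. Il10rb, the shared chain, was at 76.9 and 89.0 TPM (mean 83.0 ± 8.58, SD, n = 2). Il10ra, the chain that binds IL-10, was at 69.9 and 56.3 TPM (mean 63.1 ± 9.63, SD, n = 2). The ranges of these genes did not overlap, while that of Il10ra overlapped the range of Il4ra.

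Most of the Il10ra signal was protein-coding: Il10ra-201 held 93.5% and 84.6% of its TPM. For Il10rb the protein-coding Il10rb-201 held 69.1% and 66.1%, and Il10rb-205, a target of nonsense-mediated decay by its annotation, held 19.2% and 20.3%. Il10rb-205 has 863 bases of intron at chr16:91406755-91407617 (mm10, + strand) within an exon. In the other transcript table Il10rb-201 held 41.2% and 42.4%, below 50%, and Il10rb-202, a processed transcript of 475 bases, held 28.5% and 22.1%, beside 3.41% and 2.64% in the alignment-based table. Il20rb, a chain of the receptors for IL-19, IL-20 and IL-24, was low at 1.58 and 2.58 TPM (100 and 116 expected counts). Its share in retained-intron transcripts was 42.0% and 57.9%. Its partners Il20ra and Il22ra1, and Il22ra2, which encodes a soluble IL-22 binding protein, had 0 counts in both libraries.

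Among receptors of the gp130 and IL-12 type, 5 of 8 genes were present. Il12rb1, the chain shared by the IL-12 and IL-23 receptors, was at 35.7 and 15.2 TPM (mean 25.4 ± 14.5, SD, n = 2). It had 2604 expected counts in replicate 1 and 730 in replicate 2, so its mean rests largely on replicate 1. The protein-coding Il12rb1-201 held 72.9% and 67.1%, and a further protein-coding transcript, Il12rb1-205, held 14.0% and 14.4%.

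The specific partners of Il12rb1 were lower in both libraries. Il12rb2, which completes the IL-12 receptor, was at 1.94 and 3.12 TPM (159 and 177 expected counts). Its exons share 1519 bases with exons of Serbp1 on the opposite strand, which was at 39.5 and 47.3 TPM, and the strand setting of the counting is not stated, so the level of Il12rb2 is uncertain. Il23r, which completes the IL-23 receptor, was at 2.67 and 1.48 TPM (182 and 69 expected counts). Both were assigned wholly to protein-coding transcripts, Il23r to Il23r-201 alone and Il12rb2 mainly to Il12rb2-201 (88.1% and 100%).

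Il6ra, the IL-6 binding chain, was at 12.5 and 15.0 TPM (mean 13.7 ± 1.77, SD, n = 2). It was divided between the protein-coding transcripts Il6ra-202, of 8639 bases (54.0% and 52.7%), and Il6ra-201, of 3343 bases (46.0% and 47.3%). By counts, which are not divided by length, Il6ra-202 held 76.0% and 75.0%. In the other transcript table the order of these transcripts turned between the libraries, with 41.9% and 56.3% for Il6ra-202 and 58.1% and 43.7% for Il6ra-201.

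Il11ra1, the IL-11 binding chain, was at 14.7 and 18.2 TPM (mean 16.4 ± 2.46, SD, n = 2), but on 293 and 210 expected counts only. The short transcript Il11ra1-206 (523 bases, retained intron type) held 71.3% and 74.4% of its TPM and 33.3% and 40.2% of its counts. Of the protein-coding transcripts, Il11ra1-201 was the highest in replicate 1 (12.3% and 1.96%) and Il11ra1-204 in replicate 2 (10.4% and 13.1%). The level of Il11ra1 in TPM thus came mainly from a transcript with 97 and 84 counts. That transcript opens with 45 intron bases at chr4:41768448-41768492 (mm10, + strand), given in capitals below with the first 20 bases of the exon they run into.
Il11ra1-206: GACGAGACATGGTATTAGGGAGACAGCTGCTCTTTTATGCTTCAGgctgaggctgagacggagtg
Il11ra2, a close copy of Il11ra1, was listed at 0 in both libraries, and reads that fit both copies may have been assigned to either. Il27ra, the IL-27 binding chain, had 2 and 0 expected counts, and Il31ra 1 and 0.

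In the common beta chain family, Il3ra, the IL-3 binding chain, was at 16.9 and 15.0 TPM (mean 15.9 ± 1.38, SD, n = 2), while Il5ra had 0 counts in both libraries. The TPM values of Il3ra were close, but its expected counts were 782 and 323. The protein-coding Il3ra-203 held 44.5% and 26.4% of the TPM, and Il3ra-201 held 34.8% and 15.7%, both higher in replicate 1. The short Il3ra-204 (717 bases, retained intron type) held 13.7% and 31.3%. Protein-coding transcripts together held 86.3% in replicate 1 and 50% in replicate 2, the widest gap of the 17 genes. Part of this gap lay in Il3ra-206, a processed transcript of 506 bases, at 0% and 18.7% on 0 and 16.5 expected counts. In the other transcript table Il3ra-206 held 14.0% and 27.5%.

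Of the 5 IL-17 receptor genes, Il17ra alone was present. It encodes the chain shared by receptors of this family and was at 6.01 and 5.35 TPM (mean 5.68 ± 0.467, SD, n = 2), on 814 and 532 expected counts. It had the lowest protein-coding share of all 17 genes, 9.98% and 14.2%. The transcript Il17ra-203, annotated with a retained intron, held 81.1% and 82.2% of the TPM, 82.3% and 77.6% of the counts, and 71.3% and 65.8% in the other transcript table. Il17rb (23 and 34 expected counts), Il17rd (11 and 11) and Il17rc (3 and 2) were low, and Il17re had 0 counts. Exons of Il17rb share 141 bases with Actr8 on the opposite strand, so its few counts are uncertain.

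Il17ra lies at chr6:120463247-120487559 (mm10, + strand). Il17ra-203 keeps introns 9 and 10 of the protein-coding Il17ra-201, of 683 and 199 bases. These flank exon 10, which has only 12 bases, at chr6:120478164-120478175. The lines below show that exon in capitals, with 20 bases on either side: intron bases in Il17ra-203, the ends of exons 9 and 11 in Il17ra-201.
Il17ra-203: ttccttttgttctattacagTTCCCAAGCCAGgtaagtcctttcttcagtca
Il17ra-201: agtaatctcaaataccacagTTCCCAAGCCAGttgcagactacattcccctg
The 2 introns kept in Il17ra-203 and that of Il15ra-208 were the 3 whole introns kept among the transcripts named here, and all 3 run from GT to AG. Despite its kept introns, Il17ra-203 has 4804 bases and Il17ra-201 has 7752, so they also differ elsewhere. The share of Il17ra-203 rests on all of these differences, and the keeping of introns 9 and 10 alone was not measured.

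The IL-1 receptor family had 1 of 9 genes present. Il1rap, the accessory chain shared by the receptors for IL-1, IL-33 and IL-36, was at 1.18 and 2.29 TPM (139 and 192 expected counts). It was nearly all protein-coding, with 77.1% and 84.0% in Il1rap-201. The ligand-binding chains were lower. Il1r1, the signalling receptor for IL-1, had 0.17 and 0.19 TPM on 23 and 21 expected counts, and Il1r2, its decoy, had 0.34 and 0.06 TPM on 5 and 1. Il1rl1, the IL-33 receptor, had 1 and 5 expected counts. Il18r1, the IL-18 binding chain, had 0 in both libraries, and its partner Il18rap had 16 and 8. The tables differed widely for Il18rap, which had 309 and 350 estimated counts (1.03 and 2.89 TPM) in the other transcript table and passed the rule there. Il1rapl1 and Il1rapl2, known mainly from neurons, also had 0 counts.

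Some members are neighbours in the genome, with no protein-coding gene between them. On chromosome 1, the run Il1r2, Il1r1, Il1rl2, Il1rl1, Il18r1 and Il18rap held 6 genes, none of them present in the alignment-based table. Il4ra and Il21r on chromosome 7, 23954 bases apart, were both present, as were Il12rb2 and Il23r on chromosome 6, 46743 bases apart. Il15ra was present and Il2ra, 12096 bases away on chromosome 2, was not. The pairs Il22ra2 with Il20ra and Il17re with Il17rc had no member present.

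Over the 17 genes present, protein-coding transcripts held 69.3% and 70.6% of the summed TPM, those with a retained intron 17.7% and 16.4%, targets of nonsense-mediated decay 10.8% and 10.6%, and processed transcripts 2.17% and 2.40%. The median gene had 15.6% and 19.5% of its TPM outside protein-coding transcripts, beside 22.9% and 24.2% for all protein-coding genes present. In 4 of the 17 genes, Il15ra, Il11ra1, Il17ra and Il20rb, more than 50% lay outside in both libraries, beside 15.8% of protein-coding genes present. Il4ra passed that mark in replicate 1 (64.7%) and not in replicate 2 (49.1%). At the other end, Il6ra, Il12rb2, Il23r and Il13ra1 had all their TPM in protein-coding transcripts, as did Il1rap in replicate 2.

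**Figure D2:**
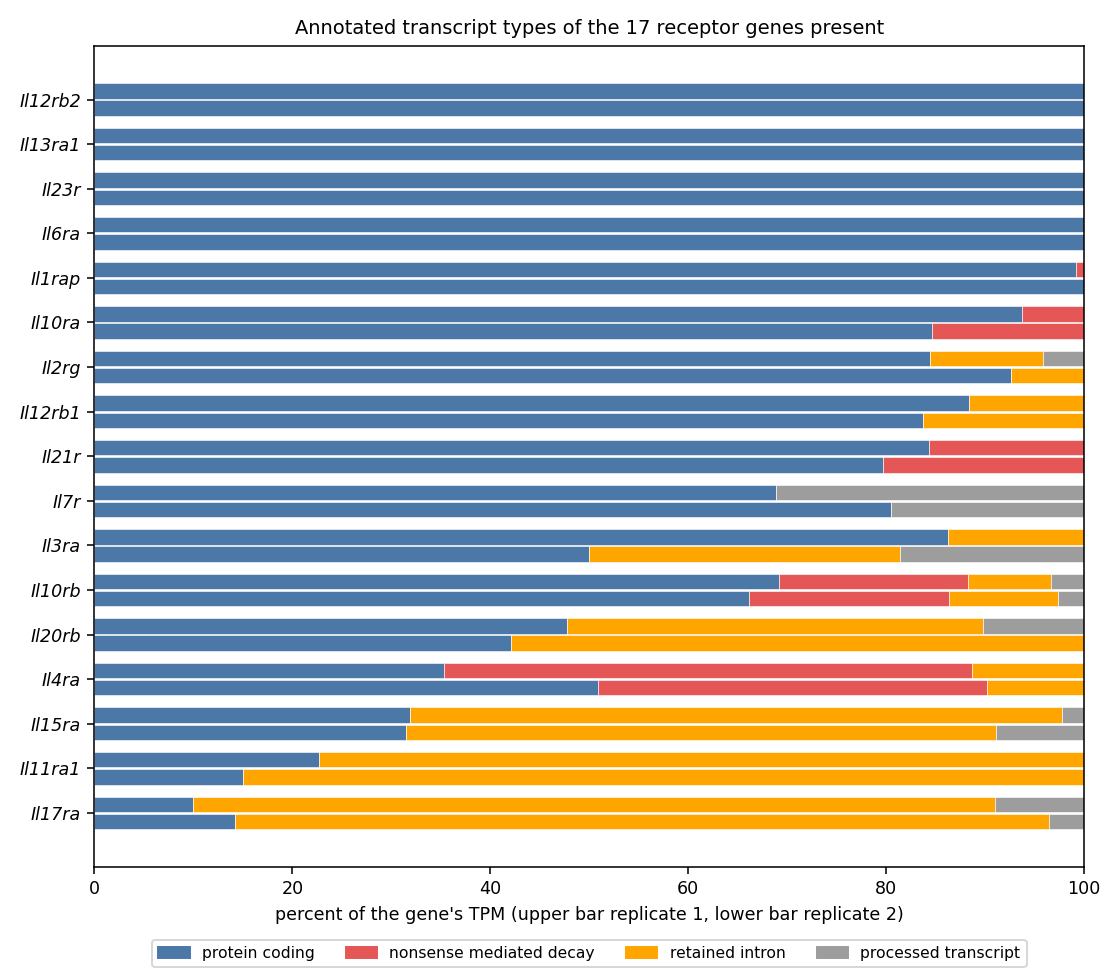
Percent of each gene's TPM in its annotated transcript types for the 17 receptor genes present, with replicate 1 in the upper and replicate 2 in the lower bar. Genes are ordered by the mean share outside protein-coding transcripts, from 0% in Il12rb2 to 90.0% and 85.8% in Il17ra.

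By type, 9 of the 17 genes had an annotated retained-intron transcript, with medians of 13.7% and 31.4% among those 9. The same medians over the 6046 protein-coding genes present with such a transcript were 24.8% and 27.3%. Transcripts annotated for nonsense-mediated decay existed in 5 of the 17, with medians of 15.7% and 20.3%, beside 4.68% and 2.41% over 3014 genes. These 5 are Il4ra, Il21r, Il10rb, Il10ra and Il1rap. With so few genes these medians are descriptions of the 5 and 9 genes. The limit on reads from precursors, given with Il15ra, applies to both types.

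The other transcript table gave a further reading of the same libraries. By the mean of the libraries, Il17ra-203, Il11ra1-206 and Il4ra-205 were the highest in both tables among the 10 transcripts of other types with 10% or more in both libraries. Of these 10, Il20rb-204 differed most between the tables in relative terms, with 27.4% and 48.5% in the alignment-based table and 7.82% and 26.4% in the other. For Il15ra-216 the values were 24.2% and 14.7% against 27.7% and 30.7%. By shares of expected counts, 2 genes, Il15ra and Il17ra, had more than 50% outside protein-coding transcripts in both libraries, and Il11ra1 and Il20rb did not. In the other table there were 6, Il10rb and Il4ra being added.

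**Figure D3:**
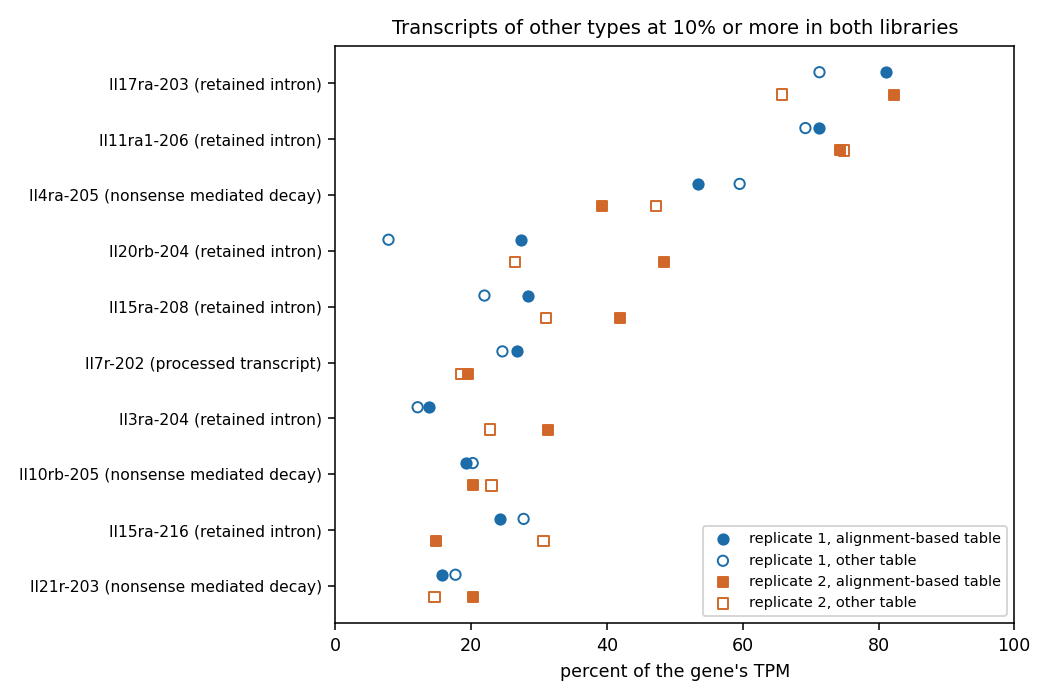
Share of the gene's TPM in the 10 transcripts that are not protein-coding and hold 10% or more in both libraries, in the alignment-based table (filled) and in the table made from the reads directly (open), for replicate 1 (circles) and replicate 2 (squares). Il17ra-203 lies between 65.8% and 82.2% in all 4 readings, and Il20rb-204 between 7.82% and 48.5%.

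Partner genes that the naming rule does not reach were counted from a list. Of 9 shared or partner subunits, 5 were present, beside 43.7% of all protein-coding genes by the same rule. Csf2ra, the GM-CSF binding chain, was at 80.8 and 62.2 TPM. Csf2rb, the common beta chain, was at 44.8 and 56.6 TPM and Csf2rb2, its mouse copy for the IL-3 receptor, at 38.0 and 45.8 TPM. These copies are much alike, so their split is uncertain. Crlf2, which pairs with Il7r to bind TSLP, was at 43.9 and 23.0 TPM, and Il6st, which encodes gp130, at 18.9 and 35.4 TPM.

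Setting subunits together, 10 of 25 receptor combinations had every subunit present, 13 had some and 2 had none. At 2 TPM, at 5 TPM and with the other transcript table, 7 were complete, those for IL-12, IL-23 and IL-4 with IL-13 through Il13ra1 being lost. The complete ones at 1 TPM were those for IL-10, IL-4 (with Il2rg, and with Il13ra1, which also binds IL-13), IL-21, IL-7, IL-6, IL-11, IL-3, IL-12 and IL-23. In the IL-10 combination the lower subunit was Il10ra at 69.9 and 56.3 TPM, the highest such value of the 10. In the combinations for IL-23, IL-12 and IL-4 with IL-13 the lowest subunit was below 4 TPM in both libraries. For IL-15, Il15ra and Il2rg were present and Il2rb, the chain that signals with them, was not. The IL-18 and IL-31 combinations had no subunit present, except that Il18rap passed in the other transcript table. Subunits were judged by gene TPM over all transcript types. For Il11ra1, protein-coding transcripts held only 22.7% and 15.0% of its TPM. Several combinations share a chain, such as Il2rg, so the 25 are not separate items. RNA in the nucleus does not measure receptor on the cell surface.

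Kinases and adaptors that these receptors use were present in 15 of 15 cases, beside 43.7% of all protein-coding genes. Among the 15 were Tyk2 (56.7 and 38.0 TPM), Stat6 (38.3 and 52.5 TPM) and Jak2 (38.7 and 32.5 TPM). Of 8 soluble or intracellular brakes, 6 were present, beside the same 43.7%. The highest were Il18bp, which encodes a secreted protein that binds IL-18 (57.9 and 69.7 TPM), and Socs3, an inhibitor of STAT3 signalling by gp130 receptors (43.7 and 18.5 TPM). Pias1 and Tollip followed at 14.0 and 21.4 TPM and at 13.5 and 21.6 TPM.

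Of 35 ligand genes, 8 were present, beside 43.7% of all protein-coding genes, and 19 had 0 counts in both libraries. The highest were Il15 (37.3 and 26.6 TPM), Ebi3, a subunit of IL-27 (33.2 and 25.8 TPM), Il1b (25.8 and 27.6 TPM) and Il18 (27.1 and 19.9 TPM). Il10 was also present, at 15.5 and 15.4 TPM. Ligand and full receptor were thus both present for IL-10, whereas Il1b and Il18 were present without Il1r1 or Il18r1. By CPM, however, Il1r1 passed the rule, at 1.05 and 1.18 CPM.

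The libraries were compared by the log2 ratio of TPM + 1, replicate 2 to replicate 1. It is given relative to the median gene with a mean TPM of 1 or more. All such genes shifted by a median of 0.29 before this centring. Of the 17 receptor genes, 11 were lower in replicate 2 and 6 higher, Il11ra1 among the latter at almost 0, with a median of -0.43. Without centring, 9 were lower and 8 higher, with a median of -0.14, and of 19 genes compared in the other transcript table, 17 were lower and 2 higher. Over 2-fold lower were 2 of the 17, Il12rb1 (-1.47) and Il15ra (-1.09), beside 4.51% of 12952 genes. Over 2-fold higher were 0 of the 17, beside 2.78% of genes.

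Counting error was set beside the ratio of expected counts, which is not divided by length and so is another quantity than the TPM difference. The 95% interval of this ratio (exact Clopper-Pearson, relative to the median gene) lay below 0 for 12 of the 17 genes, above 0 for 5, and included 0 for none. It covers the counting error of rounded expected counts only, not the assignment of reads to genes or the variation between cultures. It treats reads as independent molecules, which they are not, so it can be too narrow even for counting error. The share of all genes whose interval leaves out 0 was not computed, so these counts do not set the receptor genes apart. For Il12rb1 the log2 ratio of counts was -1.63 (interval -1.75 to -1.51). For Il3ra it was -1.07 (-1.26 to -0.88), although its TPM differed by only -0.46. The largest values above 0 were those of Il13ra1 at 0.78 (0.46 to 1.11) and Il7r at 0.68 (0.49 to 0.86). Of the 10 macrophage markers, 6 were lower in replicate 2 and 4 higher by the TPM measure, with a median of -0.39. Relative to the median gene, 2 of them were over 2-fold lower, beside 4.51% of genes, and none was over 2-fold higher. These were Cebpb (-1.97, from 53.6 and 16.0 TPM) and Fcgr1 (-1.04, from 140 and 82.7 TPM). Fcgr1 passed that mark only after centring. The part of these markers in the differences of the receptor genes was not tested.

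**Figure D4:**
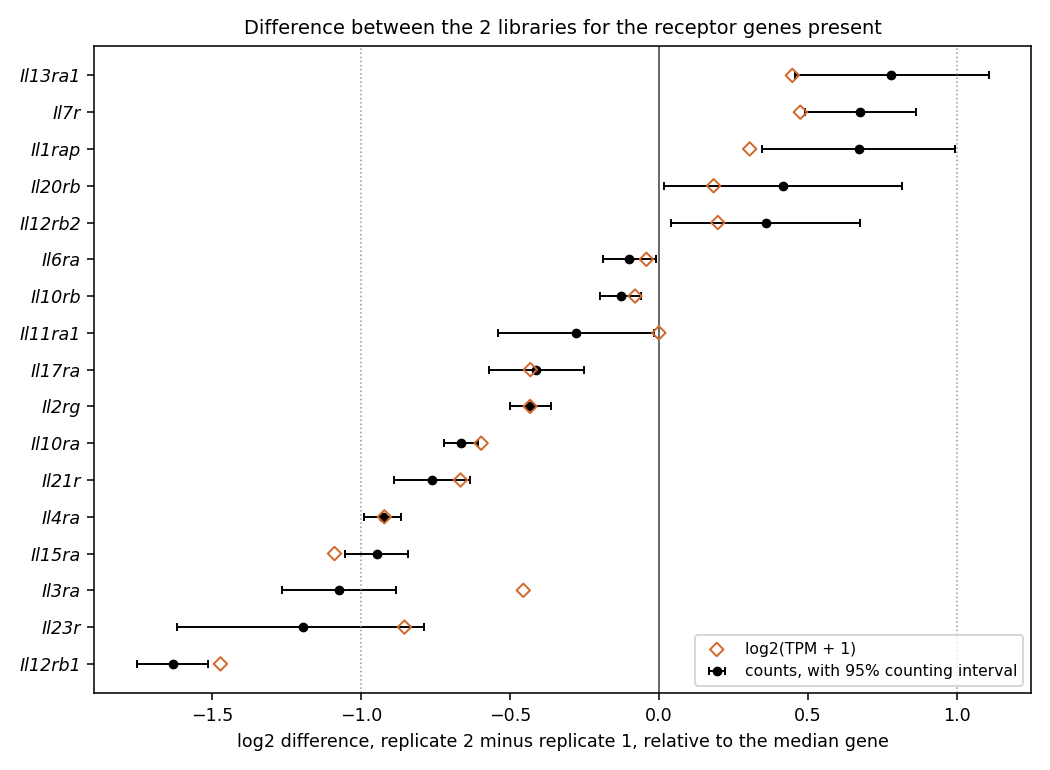
Log2 difference of replicate 2 minus replicate 1 for the 17 receptor genes present, relative to the median gene; black points are expected counts with exact 95% intervals of counting error, and open diamonds are log2(TPM + 1). Il12rb1 lies furthest to the left, at -1.63 by counts and -1.47 by TPM, and dotted lines mark a 2-fold difference.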

How the data were processed

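Ribosomal RNA-depleted nuclear RNA was measured in 2 libraries of 1 group. Per the deposited text files, the tables rest on mm10 and GENCODE M21. The aligner, quantifiers and their versions, and the strand of counting, are not stated. The authors deposited, per the file headers, expected counts (estimated counts, not normalised), TPM (such counts per effective length, brought to 1 common sum), the percent of each transcript in its gene's TPM, and the signal bounds of a TPM interval whose level is not given, which were not printed. A further deposited transcript table holds estimated counts and TPM made from the reads directly.

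The 40 members were joined by gene identifier, and all were found in both gene tables. The members and gene lists were chosen with earlier results of these data known. Of 115 other listed symbols, 112 matched by symbol and 3 through synonyms in the RefSeq gene table. Named in full were all genes present, Il1r1, Il1r2, Il1rl1, Il18r1 and Il27ra, each gene's leading transcript, those of other types with 10% or more in both libraries, coding ones at 10% or more where a gene had several, and up to 4 genes per other list plus partners of genes present; 1 gene that this rule names is not reported here. Il3ra-206, Il10rb-202, Il11ra1-201, Il15ra-210 (as reference for Il15ra-208) and Il10 were added after their values were seen. Exons of 8 of the 17 genes present overlap those of another gene, 6 of them on the opposite strand. Sequences came from GENCODE M21 transcripts. The difference and its interval were tested on simulated Poisson counts from 1 shared mean per gene, with known folds put into some genes. Such counts hold no variation between cultures, so the test does not show how the interval behaves in real libraries. Depth was 21954179 and 17739520 expected counts. Alternatives changed thresholds, pseudocount, filter, scaling, table and libraries. Rounded expected counts were scaled with edgeR 4.0.16 (TMM) and DESeq2 1.42.0 in R 4.3.3; other steps ran in Python 3.11.15 (matplotlib 3.10.9, scipy 1.17.1, pandas 2.3.3, numpy 2.4.6).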

Additional observations from a re-analysis of the deposited data

How the results depend on the processing

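No paired analysis was possible because the design has 1 group. The number of receptor genes present stayed within 1.5 times of 17 in all alternatives run: 19 at 0.5 TPM, 12 at 2 TPM and at 5 TPM, 17 with no minimum of counts, 13 with the other transcript table, 17 with posterior mean TPM, 19 with TPM rescaled over protein-coding genes, 20 by CPM, and 17 to 18 with either replicate left out. Il12rb2, Il13ra1, Il1rap, Il20rb and Il23r were the genes lost at 2 TPM, at 5 TPM and with the other table, which gained Il18rap. The 5 highest genes were the same 5 in all alternatives except CPM, where Il6ra took the place of Il15ra. Their order changed: Il10rb was first in the other transcript table and Il10ra by CPM, while Il2rg was first in the rest. Levels in TPM also depended on the table and the scale. The mean of Il2rg was 103 TPM, 43.1 in the other table and 359 with TPM rescaled over protein-coding genes. For Il4ra these values were 47.1, 20.6 and 168, and for Il6ra 13.7, 7.32 and 46.8. The SD given with a level covers the 2 libraries only. The count over 2-fold lower was 1 of 17 with a pseudocount of 5 (1.61% of all genes compared) and with no centring (2.55%). It was 1 of 40 with no filter (0.767%) and 1 of 19 with the other table (2.79%). Il15ra dropped out in each of these. With at least 10 expected counts in each library it was 2 of 21 (2.29%). The count was 3 of 17 with a pseudocount of 0.1 (6.9%), with TMM (3.84%) or DESeq2 scaling (3.92%) and by CPM (3.51%). When a fold of 1.5 was counted, 6 of 17 passed (13.1%). Il12rb1 passed in every alternative. Il23r and Il3ra passed with TMM or DESeq2 scaling and by CPM, where Il15ra did not. The median share outside protein-coding transcripts, 18.0% over the mean of both libraries, was 11.3% by expected counts, 23.2% in the other table, 28.6% over the 12 genes at 5 TPM or more, and 15.6% to 19.5% with either replicate left out; the count of genes over 50% was 2 by expected counts. The cause was not tested. Depth limits the low genes: Il1r2 had 1 count in replicate 2, with a two-sided exact Poisson 95% interval of 0.0253 to 5.57.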
